A study of Mus musculus with 12 samples.

Results

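The genes of vascular endothelial growth factor (VEGF) and angiopoietin signalling were followed in nuclei of mouse adipose tissue. They are the 10 rows with these symbols among the 32285 genes of the deposited matrices. The ligands are Vegfa, Vegfb, Vegfc, Angpt1 and Angpt2, and the receptors are Flt1, Kdr, Flt4, Tek and Tie1. All 10 were found, each in 1 row. Ligands were described in adipocytes, in adipose stem and progenitor cells (ASPC) and in mural cells, and receptors in endothelial cells. Single-nucleus RNA sequencing with 10x 3′ chemistry gave 12 libraries, 1 for each group, and the series compared brown and white depots over age and in the cold. All mice were male C57BL/6J on normal chow, with no genetic change named in the labels, and how many animals gave a library is not stated. The depots carry the short names mPRAT, lPRAT, iBAT and iWAT. These usually stand for the medial and the lateral perirenal depot, the interscapular brown depot and the inguinal white depot. Mice at room temperature (22 °C) gave 3 mPRAT and 3 iBAT libraries, aged 1, 2 and 6 months. They also gave 2 lPRAT libraries, aged 2 and 6 months, and 1 iWAT library, aged 6 months. The cold groups were mPRAT, iBAT and iWAT of 6-month-old mice kept at 4 °C for 3 days. The label called 1 month also reads 4 weeks, and that called 2 months reads 8 weeks. The 6-month libraries carry an age of 16 weeks elsewhere in their labels, so that age is uncertain.

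VEGF-A is the main growth signal for blood vessels and is released by cells short of oxygen, while VEGF-B also binds Flt1 and VEGF-C mainly drives growth of lymphatic vessels. Kdr (VEGF receptor 2) carries most of the growth signal into blood endothelium, Flt1 (VEGF receptor 1) binds VEGF-A tightly and limits it, and Flt4 (VEGF receptor 3) is the receptor of lymphatic endothelium. Angiopoietin 1, made by cells around the vessel, activates the receptor Tek (Tie2) and steadies vessels, angiopoietin 2 is made by endothelium and can oppose it, and Tie1 modifies Tek. Brown adipose tissue is densely supplied with capillaries, and brown adipocytes are a known source of VEGF-A.

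On GRCm38 with GENCODE M21, the genes lie at chr17:46016993-46032369 (Vegfa, minus strand), chr19:6982473-6987651 (Vegfb, minus), chr8:54077606-54187096 (Vegfc, plus), chr15:42424723-42676977 (Angpt1, minus) and chr8:18690263-18741562 (Angpt2, minus). The receptors lie at chr5:147561604-147726011 (Flt1, minus), chr5:75932827-75978458 (Kdr, minus), chr11:49609263-49652739 (Flt4, plus), chr4:94739289-94874976 (Tek, plus) and chr4:118471191-118490061 (Tie1, minus). RefSeq promoters on GRCm38.p6 were matched by symbol for 8 of the 10 genes, all but Angpt1 and Angpt2. The stretches before the start are shown for 4 of them, to set genes of different source classes side by side. They are Vegfa, read mostly in adipocytes, Flt1 and Kdr, read mostly in endothelium, and Tek, read in endothelium and ASPC. Each is written 5′ to 3′ on the gene's own strand. Capitals mark matches, on either strand, to the hypoxia-response core ACGTG, the ETS core GGAAG or the GC box GGGCGG, none of which overlap here.

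Vegfa (chr17:46032378-46032627, minus): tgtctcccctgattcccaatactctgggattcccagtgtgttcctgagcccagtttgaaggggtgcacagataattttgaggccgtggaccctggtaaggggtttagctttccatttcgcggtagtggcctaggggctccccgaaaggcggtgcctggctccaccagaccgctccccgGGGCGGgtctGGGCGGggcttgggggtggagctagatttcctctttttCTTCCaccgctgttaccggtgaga

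Flt1 (chr5:147726012-147726261, minus): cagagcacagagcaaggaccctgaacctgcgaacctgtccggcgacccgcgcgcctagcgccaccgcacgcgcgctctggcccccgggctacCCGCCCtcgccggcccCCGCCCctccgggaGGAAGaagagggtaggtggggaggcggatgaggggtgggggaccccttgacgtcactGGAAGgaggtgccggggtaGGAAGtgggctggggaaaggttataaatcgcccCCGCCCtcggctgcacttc

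Kdr (chr5:75978459-75978705, minus): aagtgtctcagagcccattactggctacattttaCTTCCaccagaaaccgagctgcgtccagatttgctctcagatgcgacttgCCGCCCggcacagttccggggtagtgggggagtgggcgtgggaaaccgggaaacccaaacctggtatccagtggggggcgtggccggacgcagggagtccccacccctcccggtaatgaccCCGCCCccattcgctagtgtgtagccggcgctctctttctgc

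Tek (chr4:94739039-94739288, plus): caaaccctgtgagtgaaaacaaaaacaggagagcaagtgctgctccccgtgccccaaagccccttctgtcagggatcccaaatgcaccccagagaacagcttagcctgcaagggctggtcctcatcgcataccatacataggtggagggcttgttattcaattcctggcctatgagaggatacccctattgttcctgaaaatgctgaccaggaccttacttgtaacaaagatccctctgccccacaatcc

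The Vegfa stretch held 1 ETS core and 2 GC boxes, that of Flt1 3 and 3, that of Kdr 1 and 2, and that of Tek 0 and 0. Over the 250 bases before the start, 5 of the 8 members had an ETS core, 4 of them among the 5 receptors, and 6 of 8 had a GC box. The hypoxia-response core, searched only as ACGTG, was found in 0 of 8, which says only that these letters are not in this window. Other forms of the core were not searched. Among 32851 promoters of the same length, 64.1% held the ETS core, 32.7% the GC box and 16.6% the hypoxia-response core. A match of letters is a description and not a binding site.

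Libraries held from 5461133 UMIs (lPRAT at 2 months) to 87035783 UMIs (cold iBAT), and 96648 of 119035 barcodes were kept. The mPRAT libraries also held nuclei with kidney markers, 476 proximal tubule-like and 624 distal nephron-like of 5136 at 1 month, 379 and 164 of 5773 at 2 months, and 9 and 25 of 10357 at 6 months. Nuclei with B cell markers were 3526 of 10357 in mPRAT at 6 months. They were 7 and 6 at 1 and 2 months, and 25 of 3610 in the cold. T or NK cell-like nuclei were 1597 in mPRAT at 6 months and 95 in cold mPRAT. In iWAT, B cell-like nuclei were 457 of 7709 at room temperature and 57 of 4750 in the cold. The part of kidney-like and lymphocyte-like nuclei in the age, cold and depot ratios was not tested. Median depth of a kept nucleus ran from 874 to 6115.5 UMIs. In cold mPRAT 66.0% of barcodes passed the 10% mitochondrial limit and were removed. No pair of libraries shared more than 0.734% of barcodes. Clusters were named from marker genes that include none of the 10 members. The summed level of 10 endothelial markers was 6499 to 12644 CPM in endothelial-like nuclei and at most 862 CPM in the other classes read here. That of 7 adipocyte markers was 3140.2 to 9916 CPM in adipocyte-like nuclei, 615 to 1680 CPM in endothelial-like nuclei and up to 2460.02 CPM in macrophage-like nuclei of lPRAT at 2 months. Levels are in CPM, the UMIs of a gene summed over the nuclei of a class in a library, per 1e+06 UMIs of that class. Intervals are exact 95% Poisson intervals, or exact conditional binomial intervals for ratios. They cover counting error only, and with 1 library per group no test between groups could be made. A ratio is called past the fold when it is 2-fold or more either way, among measured genes, those with 20 counts or more in its libraries together. Any difference between libraries also holds differences between animals and preparations, which cannot be told apart from age, cold or depot. The level in macrophage-like nuclei is given for comparison and subtracted in 1 alternative. Whether it comes from free RNA, doublets or their own expression was not tested.

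Adipocyte-like nuclei held 95.8% of all Vegfa UMIs, 90.03% of those of Vegfb and 89.9% of those of Angpt1, and they were also the most numerous nuclei. As a level, Vegfa was 969 CPM in adipocyte-like nuclei over the 12 libraries together, 176 in ASPC-like, 150.5 in mural-like and 228 in endothelial-like nuclei, and 125 in macrophage-like nuclei. Angpt1 was 525 CPM in mural-like, 372 in adipocyte-like and 349.8 in ASPC-like nuclei, against 94.1 in endothelial-like and 30.6 in macrophage-like nuclei. These pooled levels weight deep libraries most, and the order of mural-like and adipocyte-like nuclei for Angpt1 varied by library. The median over libraries was 473 CPM in mural-like and 483 CPM in adipocyte-like nuclei. Vegfc was 192 CPM in endothelial-like, 161 in mural-like and 91.5 in ASPC-like nuclei and 1.49 in adipocyte-like nuclei. Among the named classes Angpt2 was highest in mural-like (13.1 CPM) and endothelial-like nuclei (10.6 CPM), and nuclei left unnamed held 15.9 CPM on 32 counts. Endothelial-like nuclei held 93.4% of Flt1 UMIs, 90.1% of Tie1, 81.9% of Kdr and 80.4% of Flt4 UMIs. Tek was the exception among the receptors, with 53.8% of its UMIs in endothelial-like and 38.0% in ASPC-like nuclei. These are pooled shares. The lowest endothelial-like share in a library was 70.6% for Flt1, 83.3% for Tie1, 33.8% for Kdr, 58.3% for Flt4 and 6.45% for Tek. In adipocyte-like nuclei no receptor was above 12.7 CPM in any library.

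**Figure D1:**
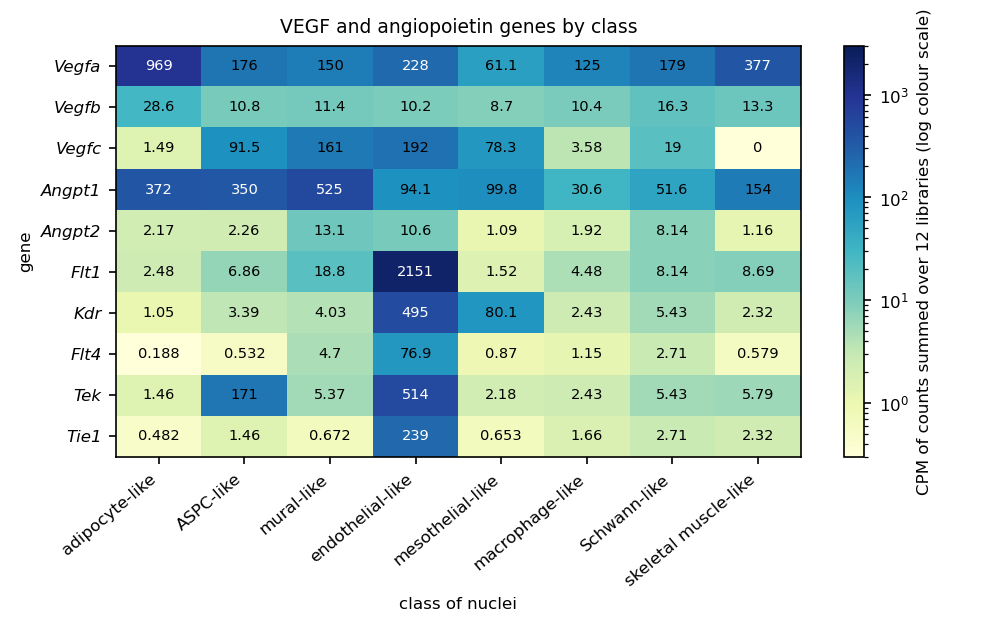
Levels of the 10 genes (rows) in 8 classes of nuclei (columns), in CPM of counts summed over the 12 libraries, with a logarithmic colour scale and the value printed in each cell. Flt1 stands at 2151 CPM in endothelial-like nuclei, Vegfa at 969 CPM in adipocyte-like nuclei, and Tek is high in both endothelial-like (514) and ASPC-like nuclei (171).

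Vegfa in adipocyte-like nuclei was highest in brown fat of young mice and in the cold. In iBAT it was 1679 CPM at 1 month, 1005 at 2 months, 894 at 6 months and 1525 in the cold. In mPRAT it was 814 CPM at 1 month, 504 at 2 months, 555 at 6 months and 1106 in the cold. It was 406 and 635 CPM in lPRAT at 2 and 6 months, and 474 and 438 CPM in iWAT at room temperature and in the cold. Of neighbours in this order, from iBAT at 1 month down to lPRAT at 2 months, only cold iWAT (428 to 448) and lPRAT at 2 months (381 to 432) had intervals that overlapped. Vegfa in macrophage-like nuclei was 341 to 551 CPM in iBAT and 55.1 to 179.9 CPM elsewhere. Whether other nuclei add to the level in any class was not tested. After thinning each nucleus to 1000 UMIs, a Vegfa UMI was seen in 78.8% of adipocyte-like nuclei of iBAT at 1 month (95% Clopper-Pearson interval 77.7 to 79.9) and in 28.6% in lPRAT at 2 months (25.6 to 31.7). In macrophage-like nuclei, thinned alike, the shares were 27.3% and 14.9%. Thinning left out 2925 and 1180 of the adipocyte-like nuclei in these libraries, and without it their shares were 84.7% and 35.2% at median depths of 1228 and 886.5 UMIs.

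**Figure D2:**
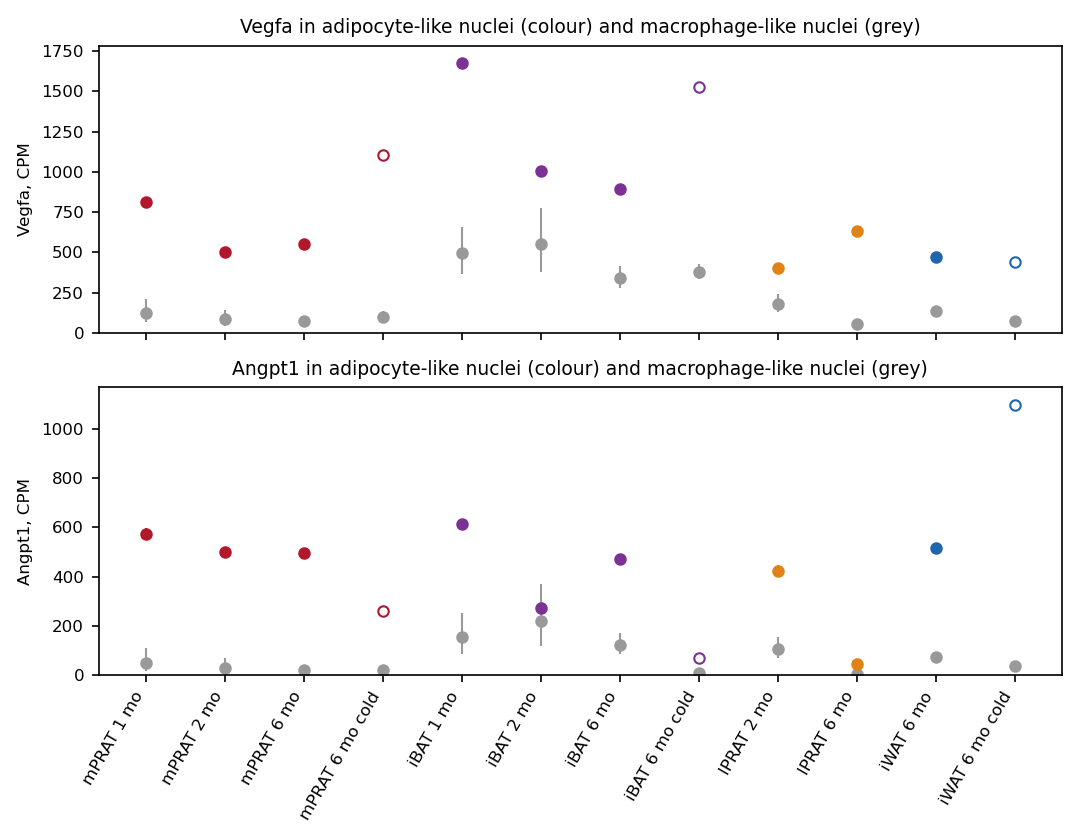
Vegfa (upper panel) and Angpt1 (lower panel) in CPM for each of the 12 libraries, in adipocyte-like nuclei (coloured by depot, open circles for cold) and in macrophage-like nuclei (grey), with exact 95% Poisson intervals as lines. Vegfa reaches 1106 CPM in cold mPRAT and 1525 CPM in cold iBAT, while Angpt1 is 69.5 CPM in cold iBAT and 1099 CPM in cold iWAT.

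Cold was compared with room temperature in the adipocyte first. Vegfa was higher in cold mPRAT by 0.99 on the log2 scale (95% interval 0.96 to 1.03), a ratio of 1.99, and in cold iBAT by 0.77 (0.75 to 0.79), a ratio of 1.71. In iWAT the log2 ratio was -0.11 (-0.15 to -0.07), and it turned to 0.02 under TMM scaling and to 0.10 with the macrophage-like level subtracted. Neither difference met the 2-fold limit as measured. With the macrophage-like level subtracted, both did, with 1.08 for mPRAT and 1.05 for iBAT. Over the alternatives the value stayed within 2-fold under 5 of 8 in mPRAT and under 7 of 8 in iBAT. Vegfa therefore stood higher in the cold in the brown and the medial perirenal depot and not in the inguinal one, in 1 pair of libraries each.

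Age gave a different order. From 1 to 6 months, Vegfa in adipocyte-like nuclei differed by -0.91 (-0.93 to -0.88) in iBAT and by -0.55 (-0.60 to -0.50) in mPRAT. With the macrophage-like level subtracted the value in iBAT was -1.10, past the 2-fold limit. Between 1 and 2 months the log2 ratio was -0.74 in iBAT and -0.69 in mPRAT, and between 2 and 6 months Vegfa was higher in mPRAT by 0.14 (0.09 to 0.19). In lPRAT, Vegfa was higher at 6 than at 2 months by 0.65 (0.55 to 0.74), and by 1.36 with the macrophage-like level subtracted, since that level was 179.9 CPM at 2 months and 55.1 CPM at 6 months. At 6 months and room temperature, Vegfa was lower than in iBAT by 0.69 in mPRAT, 0.49 in lPRAT and 0.92 in iWAT on the log2 scale.

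Within a library, Vegfa was set beside Ucp1, the uncoupling protein of thermogenic adipocytes. Adipocyte-like nuclei fell into several clusters, formed without the 10 members. Of these libraries, 9 had a cluster of at least 100 nuclei with at least 100 CPM of Ucp1. In 9 of 9, Vegfa was higher in the cluster with the most Ucp1 than in that with the least. In mPRAT at 1 month (878 and 780 CPM) and at 2 months (572 and 486 CPM) the intervals of the 2 clusters overlapped. In iBAT at 6 months the highest Vegfa (1172 CPM) was in cluster 1, and the cluster with the most Ucp1 had 974 CPM. In lPRAT at 6 months, Vegfa was 1009 CPM in cluster 13 and 630 CPM in cluster 10, each with 0 counts of Ucp1. In cold mPRAT, Vegfa was 1493.5 CPM in cluster 2 (Ucp1 1368 CPM) and 614 CPM in cluster 4 (Ucp1 34.3 CPM). In cold iBAT the same pair of clusters had 1539 and 832 CPM, and in cold iWAT cluster 16 had 618 CPM against 466 CPM in cluster 10. Ucp1 was among the genes that could shape the clusters, so this is a description of them. Clusters are not evenly spread over libraries, and a cluster that comes mostly from 1 library may be that library and not a cell type.

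**Figure D3:**
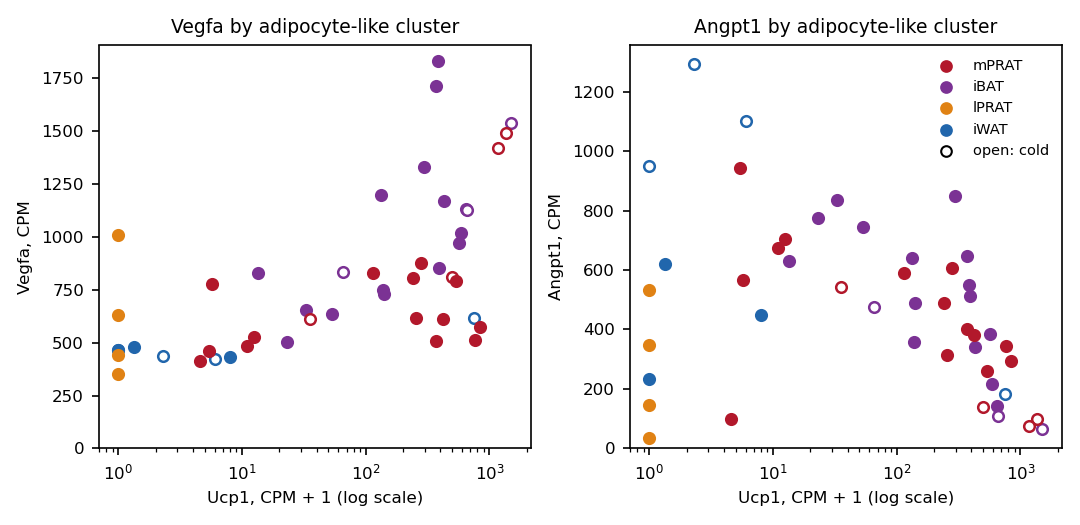
Vegfa (left) and Angpt1 (right) in CPM against Ucp1 (CPM + 1, log axis), each point a cluster of at least 100 adipocyte-like nuclei in 1 library, coloured by depot and open for cold. In cold mPRAT and cold iBAT the clusters with most Ucp1 have 1493.5 and 1539 CPM of Vegfa and only 99.3 and 63.8 CPM of Angpt1.

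The clusters that held adipocyte-like nuclei also differed between cold and room temperature. In iBAT most nuclei were in clusters 0 and 3 at room temperature (45.6% and 42.9%) and in cluster 2 in the cold (96.3%). In mPRAT clusters 4 and 3 led at room temperature (42.7% and 24.0%) and clusters 16 and 4 in the cold (53.1% and 32.9%). In iWAT the leading cluster was 8 at room temperature (75.6%) and 4 in the cold (67.6%). Cluster 2 came to 97.9% from cold iBAT. Within cluster 4, which all 3 depots shared, Vegfa was higher in the cold by 0.22 in mPRAT and 0.39 in iBAT, and differed by -0.04 in iWAT. In mPRAT cluster 6 it was higher by 0.40 (0.13 to 0.66). In iBAT, cluster 4 held only 0.751% of adipocyte-like nuclei at room temperature and 1.14% in the cold.

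Vegfb, whose product binds Flt1 but not Kdr, was much lower than Vegfa. In adipocyte-like nuclei it was between 22.4 CPM (iBAT at 6 months) and 45.6 CPM (mPRAT at 1 month). From 1 to 6 months it differed by -0.90 (-1.05 to -0.74) in iBAT and -0.56 (-0.77 to -0.34) in mPRAT. The level in iBAT at 6 months was at that of macrophage-like nuclei of the same library, 21.8 CPM on 6 counts. With the macrophage-like level subtracted, the age value was -5.10 in iBAT and 0.07 in mPRAT. Its cold ratios were -0.07 in mPRAT, 0.20 in iBAT and -0.38 (-0.55 to -0.20) in iWAT. After that subtraction they were -0.63, 4.49 and -0.25, so the size of the Vegfb ratios in iBAT is not read here.

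Angpt1 in adipocyte-like nuclei went in opposite directions in the cold. In iBAT it was 472 CPM at room temperature and 69.5 CPM in the cold, a log2 ratio of -2.76 (-2.81 to -2.72). In mPRAT it was 495 and 259 CPM, a log2 ratio of -0.94 (-0.996 to -0.88), which reached the 2-fold limit under 3 of 8 alternatives: no mitochondrial limit (-1.004), TMM scaling (-1.02) and equal weight for each nucleus (-1.05). In iWAT it was 516 and 1099 CPM, a log2 ratio of 1.09 (1.06 to 1.12), which was 0.94 with equal weight for each nucleus. The macrophage-like level moved down in both iBAT (119.7 to 7.35 CPM) and iWAT (72.1 to 34.1 CPM). Cold therefore went with less Angpt1 in the brown depot and with more in the inguinal white depot. Within cluster 4, the cold ratio was -0.37 in mPRAT, -0.64 in iBAT and 1.30 in iWAT. In mPRAT cluster 6 it was -1.18 (-1.80 to -0.61). In iWAT clusters 8 and 10 it was 1.06 and 2.01, so each of the 3 iWAT clusters compared was higher in the cold. In 7 of the 9 libraries above, Angpt1 was lower in the cluster with the most Ucp1 than in that with the least. The exceptions were mPRAT at 1 month (607 against 567 CPM) and at 6 months (259.7 against 97.3 CPM). At 1 month the intervals overlapped in mPRAT and in iBAT (550 against 630 CPM). In mPRAT at 6 months clusters 4 and 8, also low in Ucp1 (11.6 and 4.43 CPM), had 703 and 943 CPM. In cold iWAT, cluster 16, which carried the Ucp1, had 182 CPM of Angpt1 against 948 to 1292 CPM in clusters 4, 8 and 10.

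Over age, Angpt1 in adipocyte-like nuclei was 575, 501.5 and 495 CPM in mPRAT at 1, 2 and 6 months, and 616, 273 and 472 CPM in iBAT. Between the oldest and the youngest mPRAT library the log2 ratio was -0.22, and 0.02 under TMM scaling. The clusters shifted over age as well. In mPRAT, cluster 6 held 52.8% of adipocyte-like nuclei at 1 month and 5.34% at 6 months, and cluster 4 held 14.6% and 42.7%. Within cluster 6 Angpt1 was 591, 402 and 313 CPM at 1, 2 and 6 months, and within cluster 4 it was 567, 673 and 703 CPM, so the clusters went opposite ways. In iBAT, cluster 1 held 56.9% at 1 month and 8.997% at 6 months. Angpt1 there was lowest at 2 months within both cluster 0 (648, 217 and 384 CPM) and cluster 1 (549.97, 143 and 340 CPM). In lPRAT as a whole Angpt1 was 422 CPM at 2 months and 42.3 CPM at 6 months. The lPRAT nuclei were mostly in cluster 13 at 2 months (82.7%) and in cluster 10 at 6 months (88.3%). Within cluster 10 itself Angpt1 was 534 and 33.6 CPM, so the lower level at 6 months was also seen inside 1 cluster. The lPRAT library at 2 months is the shallowest of the series, and its macrophage-like nuclei held 106 CPM of Angpt1 against 3.96 CPM at 6 months.

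Vegfc and Angpt2 were near the floor in adipocytes, at 0.378 to 8.52 CPM and 0.412 to 4.49 CPM. The highest Vegfc, 8.52 CPM, was in lPRAT at 6 months, against 1.65 CPM (4 counts) at 2 months. In counts of members, 7 of 10 were measured in adipocyte-like nuclei in cold mPRAT against room temperature, and 1, Vegfc, was past the fold (lower), beside 24.0% of all measured genes. In iBAT it was 1 of 9 (Angpt1, lower) beside 28.3%, and in iWAT 2 of 8 (Angpt1 higher, Angpt2 lower) beside 19.0%. The Vegfc ratio in cold mPRAT rests on 6 counts against 34 at room temperature. It was -1.30 on the log2 scale, and -0.45 with equal weight for each nucleus. With 1 or 2 members past the fold in each, little can be read from these shares. Over age, 2 of 7 were past the fold in mPRAT beside 20.8%, 5 of 9 in iBAT beside 20.9% and 5 of 7 in lPRAT beside 26.9%. The 2 in mPRAT were Flt1 and Tek, both lower, and the 5 in iBAT were Vegfc and the 4 receptors Flt1, Kdr, Tek and Tie1, all lower. In lPRAT they were Vegfc and Angpt2 (higher) and Angpt1, Flt1 and Tek (lower). Angpt2 there rests on 1 and 23 counts, with 1.88 (-0.74 to 7.25) on the log2 scale, 0.62 with equal weight for each nucleus and -1.06 with at least 1000 genes per nucleus. The receptors in these lists lay at 12.7 CPM or less, where macrophage-like nuclei reached 28.3 CPM for Flt1, 20.3 for Tek, 14.5 for Kdr and 9.42 for Tie1, on 1 to 4 counts each, so they are counted here but not interpreted. Against iBAT at 6 months, 4 of 9 were past the fold in mPRAT beside 21.8%, 5 of 9 in lPRAT beside 36.3% and 4 of 9 in iWAT beside 37.0%. Vegfc was higher and Kdr and Tie1 were lower in each of these depots, at levels of at most 8.52 CPM. Angpt1, a member well above the floor, was also past the fold in lPRAT (lower), with 42.3 CPM against 472 CPM in iBAT.

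ASPC-like nuclei, the stromal progenitors, held Angpt1 and Vegfc at levels that differed by depot. Angpt1 was 546 and 592 CPM in iWAT at room temperature and in the cold, and 274, 270.1, 315 and 466 CPM in iBAT at 1, 2 and 6 months and in the cold. It was 115, 177, 145 and 164 CPM in mPRAT and 76.6 and 101 CPM in lPRAT. As measured, the iBAT and iWAT libraries all lay above the perirenal libraries. Macrophage-like nuclei of iBAT held 152, 217, 119.7 and 7.35 CPM of Angpt1, beside 274, 270.1, 315 and 466 CPM in ASPC-like nuclei, and the order above is of levels with nothing subtracted. At 6 months the log2 ratio to iBAT was -1.12 (-1.35 to -0.89) in mPRAT, -1.63 (-1.93 to -1.35) in lPRAT and 0.80 (0.64 to 0.95) in iWAT. The mPRAT value was within 2-fold with the macrophage-like level subtracted (-0.64) or with doublets kept (-0.92), and the iWAT value was past it after the subtraction (1.28).

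Vegfc in ASPC-like nuclei was 35.5, 78.0 and 85.8 CPM in mPRAT at 1, 2 and 6 months and 59.2 CPM in the cold. In iBAT it was 41.3, 45.9 and 64.6 CPM, and 98.9 CPM in the cold. It was 51.7 and 97.6 CPM in lPRAT, and 145 CPM in iWAT against 68.8 CPM in cold iWAT. The cold ratio in iWAT was -1.08 (-1.39 to -0.77), and -0.75 when each nucleus was weighted equally. In mPRAT Vegfc was higher at 6 than at 1 month by 1.27 (0.53 to 2.12). Vegfc in ASPC was thus lower in cold iWAT and cold mPRAT and higher in cold iBAT (0.61, 0.24 to 1.00).

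Vegfa in ASPC-like nuclei was 81.4 to 179.7 CPM in mPRAT, 120.03 and 141 CPM in lPRAT, 108 and 133 CPM in iWAT and 217 to 385 CPM in iBAT. The iBAT levels lay at or below those of macrophage-like nuclei of the same libraries (341 to 551 CPM) except in the cold, where they were 385 against 376.5 CPM. Elsewhere they lay on either side of the macrophage-like level. Vegfa is therefore not read as expression by ASPC. In counts of members, 0 of 5 measured were past the fold in cold mPRAT beside 11.9% of measured genes, 0 of 5 in cold iBAT beside 14.4% and 2 of 6 in cold iWAT beside 9.87%. The 2 in iWAT were Vegfc (lower) and Flt1 (higher), the latter on 12 and 14 counts. With the macrophage-like level subtracted, Vegfa (1.70) and Vegfb (1.77) were past the fold in cold mPRAT and Angpt1 (1.24) in cold iBAT. Vegfb in cold mPRAT was also past it with equal weight for each nucleus (1.08).

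Mural-like nuclei, the pericytes and smooth muscle cells, held Angpt1 in mPRAT, iBAT and iWAT. It was 298, 693, 469 and 493 CPM in mPRAT at 1, 2 and 6 months and in the cold. In iBAT it was 526, 473, 659 and 786 CPM, and in iWAT 418 and 453 CPM. The cold ratios were 0.07 (-0.42 to 0.54) in mPRAT, 0.26 (-0.01 to 0.52) in iBAT and 0.12 (-0.56 to 0.79) in iWAT, each with an interval that includes no change. The large cold differences of Angpt1 in adipocytes were thus not seen in mural-like nuclei at this depth. In lPRAT only 4 and 25 nuclei were mural-like, too few to read. Vegfc in mural-like nuclei was 191 to 285 CPM in iBAT and at most 83.8 CPM in mPRAT and iWAT. At 6 months its log2 ratio to iBAT was -1.76 (-2.46 to -1.12) in mPRAT and -1.89 (-3.24 to -0.79) in iWAT. Angpt2 in mural-like nuclei was highest in iWAT, with 77.0 CPM (30.9 to 159) on 7 counts, and in 1 sub-cluster with smooth muscle markers, at 112 CPM. The sub-cluster with pericyte markers had 686 CPM of Angpt1 and 266 CPM of Vegfc, and 195 of its 213 nuclei came from iBAT at 6 months. Only 2 or 3 members were measured in each cold comparison of mural-like nuclei, too few to count. Vegfa in cold iBAT mural-like nuclei was 390.0 CPM, close to the 376.5 CPM of macrophage-like nuclei. At room temperature it was 162 CPM, against 341 CPM in macrophage-like nuclei. The log2 ratio was 1.27 (0.81 to 1.74), and 0.77 with doublets kept. Flt1 in cold iWAT mural-like nuclei was 221 CPM (135 to 341) on 20 counts. At room temperature it had 0 counts, with an interval up to 40.6 CPM. With the 0 set to the floor of 3 counts the ratio was 6.70-fold, which is not a lower limit. The 10 endothelial markers summed to 332 CPM in mural-like nuclei of cold iWAT and to 385 CPM at room temperature.

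Receptors were read in 4776 endothelial-like nuclei, of which only 28 came from lPRAT at 2 months. Flt1 was 3268, 3091 and 2039 CPM in iBAT at 1, 2 and 6 months and 2121 CPM in the cold. In mPRAT it was 1966, 2083 and 1721 CPM, and 1492 CPM in the cold. In lPRAT it was 1322 and 1431 CPM and in iWAT 1206 and 1337 CPM. All 4 iBAT libraries were above those of lPRAT and iWAT, and the youngest brown fat was highest. From 1 to 6 months Flt1 in iBAT differed by -0.68 (-0.77 to -0.59), and by -0.60 between 2 and 6 months alone. In mPRAT the age difference was -0.19 (-0.31 to -0.07), and 0.0045 with equal weight for each nucleus, so no direction is read there. In sub-cluster 0, which held most endothelial nuclei of young iBAT, Flt1 was 3612, 3593 and 2114 CPM at 1, 2 and 6 months, so the difference was also there within the sub-cluster. The cold ratios of Flt1 were -0.21 in mPRAT, 0.06 in iBAT and 0.15 in iWAT, none near 2-fold. In mPRAT it was -0.66 without the cluster of large-vessel endothelium.

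Kdr, the main signalling receptor, stood higher in the oldest library of mPRAT and iBAT than in the youngest. It was 509, 416, 637 and 764 CPM in iBAT at 1, 2 and 6 months and in the cold, and 327, 398, 489 and 514 CPM in mPRAT. It was 358 and 357 CPM in lPRAT and 245 and 277 CPM in iWAT. Brown fat at 6 months, with and without cold, was highest and iWAT lowest. From 1 to 6 months the log2 ratio was 0.58 (0.31 to 0.86) in mPRAT and 0.32 (0.14 to 0.51) in iBAT, and 0.05 for iBAT with doublets kept. In mPRAT it was 0.51 without sub-cluster 7, which has Pax2, a gene of kidney development, among its leading genes and held 56 of 384 nuclei at 1 month and 23 of 330 at 6 months. The cold ratio was 0.26 (0.10 to 0.43) in iBAT, 0.07 (-0.23 to 0.37) in mPRAT and 0.18 (-0.19 to 0.54) in iWAT. In mPRAT the sign held under only 6 of 11 alternatives. In iWAT the sign turned, to -1.10, with only nuclei of at least 1000 genes. At 6 months Kdr in iWAT was lower than in iBAT by 1.38 on the log2 scale (95% interval of the ratio -1.70 to -1.07), and past the 2-fold limit under each of the 11 alternatives run. The difference was -0.38 in mPRAT and -0.84 in lPRAT, and in lPRAT it was past 2-fold under 2 of 11 alternatives.

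**Figure D4:**
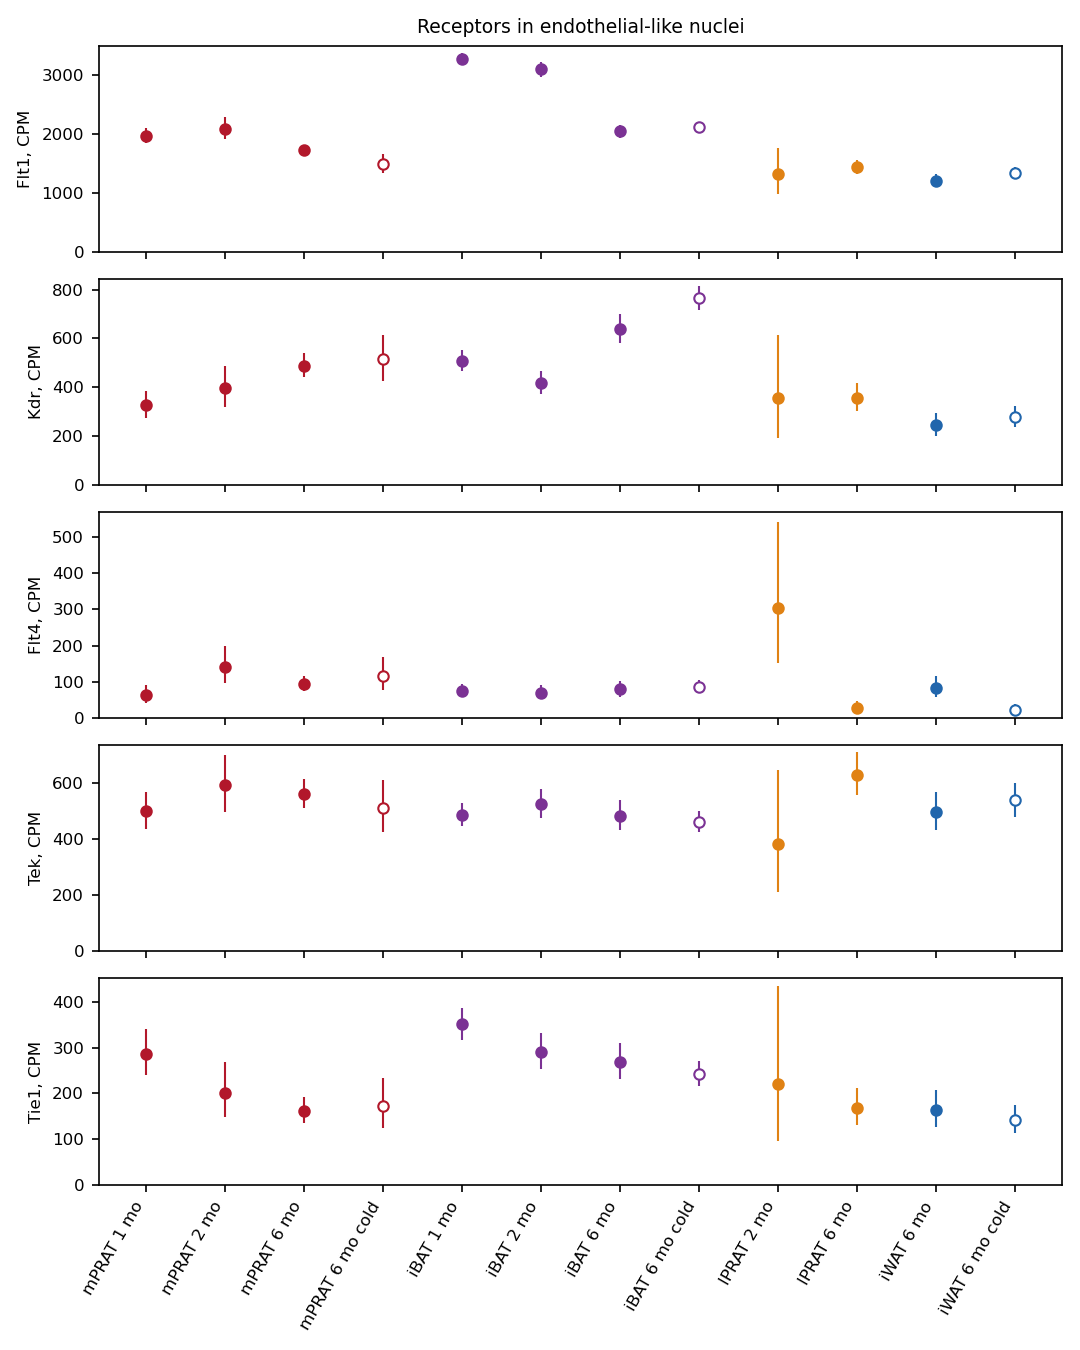
Flt1, Kdr, Flt4, Tek and Tie1 (panels from top) in CPM in endothelial-like nuclei of each of the 12 libraries, coloured by depot and open for cold, with exact 95% Poisson intervals as lines. Flt1 is highest in iBAT at 1 month (3268 CPM), Kdr in cold iBAT (764 CPM), and Tek lies between 386 and 632 CPM in every library.

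Tek and Tie1 are the angiopoietin receptor and its partner. Tek was 386 to 632 CPM over the 12 libraries, both ends in lPRAT, and 464 to 595 CPM in the other depots. Its cold ratios were -0.13, -0.06 and 0.11 in mPRAT, iBAT and iWAT, each with an interval that includes no change. Tie1 was 350.4, 291, 268 and 242 CPM in iBAT at 1, 2 and 6 months and in the cold, and 287, 201, 162 and 171 CPM in mPRAT. It was 220.3 and 168 CPM in lPRAT, and 163 and 141 CPM in iWAT. From 1 to 6 months it differed by -0.82 (-1.18 to -0.46) in mPRAT and by -0.39 (-0.64 to -0.13) in iBAT. Tie1 was thus lower in the older library of both depots.

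Flt4 was 64.4 to 141 CPM in mPRAT, 70.0 to 87.3 CPM in iBAT, 84.0 and 23.8 CPM in iWAT at room temperature and in the cold, and 28.0 CPM in lPRAT at 6 months. The 303 CPM of lPRAT at 2 months rests on 11 counts in 28 nuclei, 4 of them lymphatic-like. The cold ratio in iWAT was -1.82 (-2.83 to -0.90). It was -0.33 without the large-vessel cluster, a setting that kept only the largest blood endothelial-like cluster. How many lymphatic-like nuclei that setting left out is not given here. Sub-cluster 10, rich in Flt4, held 22 of 282 nuclei at room temperature and 3 of 417 in the cold.

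Endothelium was also a source of Vegfc, and here the depots differed. Vegfc was 133, 115 and 229 CPM in mPRAT at 1, 2 and 6 months and 100.3 CPM in the cold. In iBAT it was 68.3, 60.5 and 99.5 CPM and 247 CPM in the cold. In lPRAT it was 303 and 329 CPM, and in iWAT 366 and 406 CPM. The lPRAT and iWAT libraries were thus higher than those of iBAT, of which the cold one came nearest to them. As lPRAT at 2 months had only 28 endothelial-like nuclei, its place above cold iBAT is not read. At 6 months the log2 ratio to iBAT was 1.202 (0.80 to 1.62) in mPRAT, 1.72 (1.30 to 2.16) in lPRAT and 1.88 (1.46 to 2.31) in iWAT. With a mitochondrial limit of 5% the value in mPRAT was 0.88. The cold ratio was 1.31 (0.93 to 1.71) in iBAT, -1.19 (-1.87 to -0.57) in mPRAT and 0.15 (-0.15 to 0.45) in iWAT. The value in mPRAT, on 24 counts in the cold, was within 2-fold under 5 of 11 alternatives, and that in iBAT under 1 (0.996 with a mitochondrial limit of 5%). In mPRAT it was -0.43 without the large-vessel cluster. In iWAT it was 1.08 without that cluster.

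Sub-clusters of endothelial-like nuclei placed these genes along the vessel tree. Vegfc was 1194 CPM in the arterial-like sub-cluster 2 and 912 CPM in the arterial-like sub-cluster 8. It was 247 CPM in sub-cluster 3, which expressed the venous markers but stayed unnamed by the rule, and at most 32.3 CPM in sub-clusters 0, 1, 4, 5 and 7. Within sub-cluster 2, Vegfc was 322, 612 and 836 CPM in iBAT at 1, 2 and 6 months and 2193 CPM in the cold (1889 to 2533). It was 687 and 674 CPM in mPRAT at 1 and 6 months, 2092 CPM in lPRAT at 6 months, and 1617 and 1920 CPM in iWAT at room temperature and in the cold. The higher Vegfc of cold iBAT endothelium was thus found within the arterial-like nuclei, which were 32 of 499 in the cold and 28 of 542 at room temperature. In mPRAT those arterial-like nuclei were 77 of 330 at room temperature and 6 of 137 in the cold, which moves with the lower Vegfc there; its part in the result was not tested. At 6 months and room temperature the arterial-like sub-cluster 2 also held 28 of 542 nuclei in iBAT, 50 of 301 in lPRAT and 53 of 282 in iWAT. Within it Vegfc was 674 CPM in mPRAT (552 to 816) and 836 CPM in iBAT (560.1 to 1201), so the higher Vegfc of mPRAT endothelium was not seen inside this sub-cluster.

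Kdr was highest in sub-clusters 4 (capillary-like, 1025 CPM) and 5 (1040 CPM), and was 219 CPM in arterial-like sub-cluster 2, 171 CPM in sub-cluster 3 and 8.52 CPM in arterial-like sub-cluster 8. Flt1 was 1707 to 3227 CPM in sub-clusters 0 to 5 and 7, 567 CPM in arterial-like sub-cluster 8 and 11.1 CPM in the 62 lymphatic-like nuclei. Flt4 was 1252 CPM in lymphatic-like nuclei, 299 CPM in sub-cluster 10, 226 CPM in sub-cluster 7 and at most 75.4 CPM in the others. Flt1 was 28.0 CPM in sub-cluster 10 but 2453 CPM in sub-cluster 7, and Flt4 was 51.1 CPM in arterial-like sub-cluster 8. Tek was 463 to 925 CPM in every sub-cluster from 0 to 5 and in 7 and 8, and 255 CPM in lymphatic-like nuclei. Angpt2 was highest in sub-cluster 7 (59.2 CPM on 11 counts), which came only from mPRAT, and in lymphatic-like nuclei (44.3 CPM on 4 counts). Sub-clusters also followed libraries: sub-cluster 0 held 781 of 979 nuclei of iBAT at 1 month, sub-cluster 5 held 290 of 542 at 6 months and sub-cluster 4 held 353 of 499 in the cold. In turn, 88.7% of sub-cluster 4 came from cold iBAT. Differences in receptor levels of iBAT over age and cold cannot be told apart from this change of sub-cluster, except that Flt1 was also lower at 6 months within sub-cluster 0, on 102 nuclei. The part of sub-clusters in the lower Kdr of iWAT and lPRAT beside iBAT at 6 months was not tested.

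**Figure D5:**
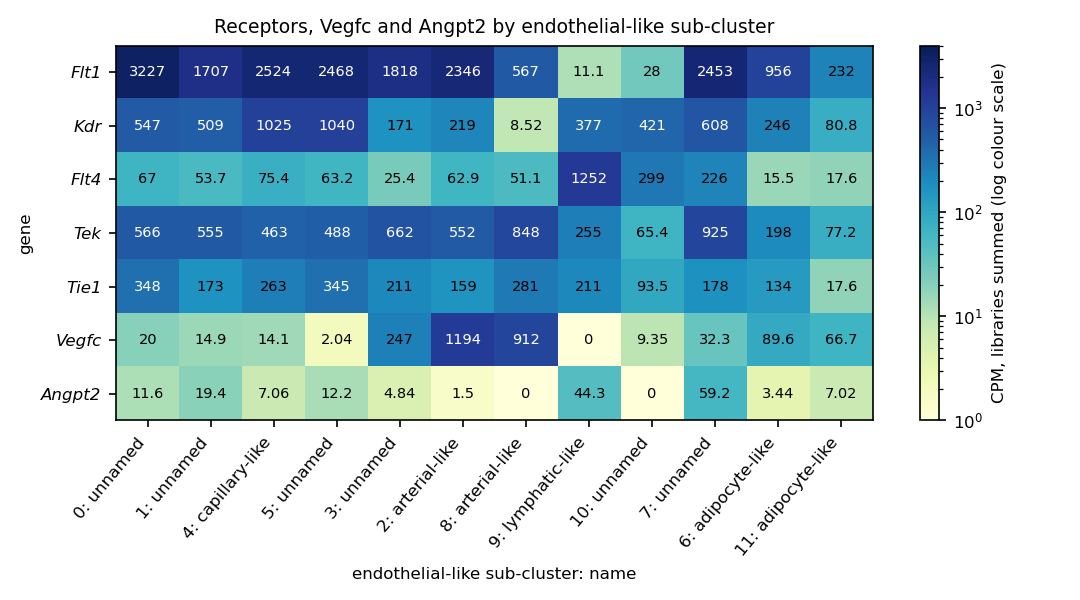
Levels of the 5 receptors, Vegfc and Angpt2 (rows) in the 12 sub-clusters of endothelial-like nuclei (columns, with their number and name), in CPM of libraries summed, with a logarithmic colour scale and the value printed in each cell. Vegfc is at 1194 and 912 CPM in the arterial-like sub-clusters, Flt4 at 1252 CPM in the lymphatic-like one, and Kdr above 1000 CPM in sub-clusters 4 and 5.

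Sub-clusters 6 and 11 carried adipocyte markers, and ligand levels in endothelial-like nuclei moved with them. Angpt1 in endothelial-like nuclei of iWAT was 65.3 CPM at room temperature and 338 CPM in the cold, a log2 ratio of 2.37 (1.79 to 3.00). Without those sub-clusters it was -0.21, and without the large-vessel cluster -0.26, so the direction turned. Sub-cluster 11, with 899 CPM of Angpt1, held 5 of 282 nuclei at room temperature and 13 of 417 in the cold. Vegfa in endothelial-like nuclei of mPRAT was 115 and 322 CPM, a log2 ratio of 1.48 (1.03 to 1.93), which was 0.53 without those sub-clusters. It was past 2-fold under 9 of 11 alternatives, and the highest value was 2.53. The 7 adipocyte markers there summed to 964 CPM at room temperature and 1237 CPM in the cold.

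In counts of members in endothelial-like nuclei, cold gave 2 of 8 past the fold in mPRAT (Vegfa higher, Vegfc lower) beside 16.1% of measured genes. In iBAT 2 of 9 were past it (Vegfc and Vegfb higher) beside 12.6%, with Vegfb on 7 and 26 counts. Its log2 ratio of 1.005 was within the fold under 5 of 10 alternatives, down to 0.049 with at least 1000 genes per nucleus. In iWAT 2 of 8 were past it (Angpt1 higher, Flt4 lower) beside 10.3%. No receptor other than Flt4 in iWAT was past the fold in the cold. From 1 to 6 months 0 of 9 were past it in mPRAT beside 15.6% and 0 of 8 in iBAT beside 19.0%. Against iBAT at 6 months, 2 of 8 were past it in mPRAT (Vegfc higher, Vegfa lower) beside 17.1%. In lPRAT 4 of 8 were past it (Vegfc higher, and Vegfa, Angpt1 and Flt4 lower) beside 22.9%, and in iWAT 2 of 8 (Vegfc higher, Kdr lower) beside 22.7%.

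Tek was also read in ASPC-like nuclei, at levels far above those of macrophage-like nuclei (at most 20.3 CPM). It was 349.8 and 263 CPM in lPRAT at 2 and 6 months, 180, 184 and 239 CPM in mPRAT at 1, 2 and 6 months and 169 CPM in the cold. In iWAT it was 182 and 139.6 CPM and in iBAT 95.8, 91.7, 128 and 83.5 CPM. Every perirenal and inguinal library was thus above every iBAT library. At 6 months the log2 ratio to iBAT was 1.03 (0.77 to 1.31) in lPRAT, 0.90 (0.64 to 1.16) in mPRAT and 0.51 (0.26 to 0.76) in iWAT. The value in lPRAT was within 2-fold under 3 of 8 alternatives, and that in mPRAT was past it under 2 of 8. Tek was lower in the cold in all 3 depots, by 0.50 in mPRAT (ratio interval -0.80 to -0.20), 0.62 in iBAT (-0.94 to -0.30) and 0.39 in iWAT (-0.62 to -0.16) on the log2 scale. Its partner Tie1 was at most 4.44 CPM in ASPC-like nuclei. The 10 endothelial markers there summed to 135 and 111 CPM in lPRAT, 158 and 336 CPM in iWAT, 498 to 806 CPM in mPRAT and 503 to 862 CPM in iBAT, and their part in the Tek levels was not tested. Kdr had a site outside endothelium as well, in the mesothelial-like nuclei that line the perirenal depots, with 46.2 to 107 CPM in mPRAT and 26.1 and 93.8 CPM in lPRAT. Flt1 was at most 4.61 CPM in those nuclei.

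A list of 38 other genes of the pathway was counted in the same way: co-receptors, oxygen sensors, regulators of Vegfa, Notch and ephrin partners and downstream genes. In adipocyte-like nuclei in the cold, 4 of 30 measured list genes were higher and 4 lower past the fold in mPRAT, with a list median of -0.04 against -0.04 over all genes, beside 24.0% of all measured genes past it either way. In iBAT 4 of 33 were higher and 6 lower (median -0.14 against -0.12) beside 28.3%, and in iWAT 5 of 29 were higher and 5 lower (-0.04 against -0.23) beside 19.0%. Ppargc1a, a coactivator known to raise Vegfa, was 638 and 1512 CPM in mPRAT (1.24), and Epas1, the oxygen-sensing factor HIF-2α, was 179 and 379 CPM in mPRAT (1.08) and 312 and 639.6 CPM in iBAT (1.04). In iWAT Epas1 was 141 and 149 CPM. Ppargc1a was 1124 and 1464 CPM in iBAT and 127 and 235 CPM in iWAT. In iWAT Esrra, a partner of Ppargc1a, was 44.0 and 134 CPM (1.60), Sema3a 1.48, Nos3 1.38 and Grb14 -1.92. The list genes that were lower in mPRAT and iBAT are not named here, and any tie of the named genes to Vegfa was not tested.

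In ASPC-like nuclei in the cold, 1 of 25 list genes was higher and 2 lower past the fold in mPRAT, beside 11.9% of all measured genes, with a list median of -0.23 against -0.01 over all genes. In iBAT 1 of 24 was higher and 1 lower beside 14.4% (0.01 against 0.09), and in iWAT 3 of 25 were higher and 0 lower beside 9.87% (0.36 against -0.03). Vegfd, a further VEGF ligand that binds Flt4, was 327 CPM at room temperature and 775 CPM in the cold in mPRAT (1.24), and 50.2 and 132 CPM in iBAT (1.40). Thbs1, an inhibitor of vessel growth, was lower in both, by 2.13 in mPRAT and 4.44 in iBAT on the log2 scale. In iWAT, Vegfd was 98.02 and 160.1 CPM and Thbs1 11.7 and 9.92 CPM. In endothelial-like nuclei 1 of 26 list genes was higher and 3 lower in mPRAT beside 16.1% (list median -0.14 against -0.05 over all genes). In iBAT 1 of 28 was higher and 1 lower beside 12.6% (0.03 against 0.07), and in iWAT 3 of 26 were higher and 2 lower beside 10.3% (-0.02 against -0.03). Calcrl, the receptor subunit for adrenomedullin, was 123 and 468 CPM in iBAT (1.93) and 147 and 373 CPM in iWAT (1.35). Aplnr, the apelin receptor, was lower in cold iBAT by 2.54. Sema3a, a semaphorin that competes at neuropilins, was lower in cold mPRAT by 2.53 and in cold iWAT by 2.98.

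The list was also counted over age and depots. In adipocyte-like nuclei of iBAT from 1 to 6 months, 4 of 32 list genes were higher and 10 lower beside 20.9% of all measured genes, with a list median of -0.36 against 0.02 over all genes. Foxo1, a factor restrained by Tek signalling, was 1754 and 843 CPM there. Nrp2, a co-receptor for VEGF-C, was 655 CPM in adipocyte-like nuclei of iBAT at 6 months, 209 CPM in mPRAT, 7.13 CPM in iWAT and 4.89 CPM in lPRAT. Egln1, the oxygen sensor that marks HIF for removal, was 266 CPM in iBAT, 125 CPM in mPRAT, 45.8 CPM in iWAT and 32.8 CPM in lPRAT. Against iBAT at 6 months, 9 of 33 list genes were higher and 4 lower in mPRAT beside 21.8% (list median 0.14 against -0.0036 over all genes). In lPRAT 7 of 31 were higher and 13 lower beside 36.3% (-0.49 against -0.0061), and in iWAT 10 of 32 were higher and 11 lower beside 37.0% (0.11 against -0.09). The list genes that were higher than in iBAT, and the 4 that were higher over age, are not named here. Foxo1, Nrp2 and Egln1 are thus examples of 1 direction and do not stand for the list.

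Finally, the genes whose pattern over the 12 libraries was most like that of a member were named, by the root mean square difference of log2(CPM + 10) after centring each gene. In adipocyte-like nuclei, among 3731 genes, those nearest to Vegfa were Trak2 (0.18), Sbno2 (0.19) and Psap (0.22), where Vegfa itself varied by 0.66 about its mean. In endothelial-like nuclei, among 3920 genes, those nearest to Kdr were Btnl9 (0.25), Gtpbp2 (0.25) and Msn (0.26), where Kdr varied by 0.45. In mural-like nuclei, among 3964 genes, those nearest to Angpt1 were Col4a1 (0.30), Kansl1 (0.33) and Arih1 (0.33), against 0.42 for Angpt1. The mural-like values include the lPRAT library at 2 months, with 4 nuclei and 1 count of Angpt1.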

How the data were processed

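Single-nucleus libraries (10x 3′ v3.1) of 12 mouse adipose samples were used, with 1 library for each group. The authors deposited UMI counts per gene and nucleus for each library. Cell Ranger 7.0.0 and mm10 (GRCm38) are named for them per the submitters' processing notes. Counting of reads from introns is not given in the sources used here.

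Nuclei with at least 500 UMIs, 300 genes and at most 10% mitochondrial UMIs were kept. Doublets were removed by Scrublet score, taking the top 0.8% per 1000 nuclei, since its own threshold marked under 0.5% in several libraries. Clustering (scanpy 1.11.5, 2000 variable genes, 30 components, 15 neighbours, Leiden resolution 1) left out the 10 members and the 38 pathway genes. Clusters were called X-like from marker lists, and cluster 18, with large-vessel markers, was named endothelial-like by a rule set after the clusters were seen. UMIs were summed per class and library. The step that computes ratios was tested on simulated data. TMM factors came from edgeR 4.0.16. No test between groups was possible, so ratios carry counting intervals only.

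The members, lists and comparisons were chosen with earlier results of these data known. Named genes were all 10 members, pathway genes past the fold with at least 50 CPM in a library of the comparison (at most 6 per comparison), and the 3 genes most like Vegfa, Kdr or Angpt1. Of these pathway genes only examples are named in the text.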

Additional observations from a re-analysis of the deposited data

Results flagged for a closer look

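Vegfc in endothelial-like nuclei lay in opposite directions in the cold in 2 depots. Its log2 ratio of cold to room temperature was -1.19 in mPRAT and 1.31 in iBAT. The mPRAT value rests on 24 counts in the cold and was past 2-fold under 6 of 11 alternatives, with -0.43 nearest to no change. The arterial-like share of nuclei also differed between these mPRAT libraries, and its part was not tested. Angpt1 in adipocyte-like nuclei also lay in opposite directions, with -2.76 in iBAT and 1.09 in iWAT. Each depot has 1 library per condition, and the difference between depots was not tested.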

How the results depend on the processing

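No paired analysis was possible because each group has 1 library. Of 216 member ratios compared, 65 were past the 2-fold limit, and 30 of these were past it under every alternative that gave a value. In the same comparisons and classes, 9.87% to 37.0% of all measured genes were past it. The count is therefore not read as a trait of the members. Leaving out the adipocyte-marker sub-clusters, endothelial sub-cluster 7 (Pax2) or the large-vessel cluster was chosen after seeing the data. The last of these kept only the largest blood endothelial-like cluster. In each group of 3 below, cold values are in the order mPRAT, iBAT and iWAT, and age values in the order mPRAT, iBAT and lPRAT. The cause of these shifts was not tested.

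Under TMM scaling, Vegfa in adipocyte-like nuclei was 0.91, 0.97 and 0.017 in the cold and -0.31, -0.81 and 0.85 over age, and Angpt1 was -1.02, -2.56 and 1.22 in the cold and 0.021, -0.28 and -3.11 over age. With the macrophage-like level subtracted, Vegfa was 1.08, 1.05 and 0.10 in the cold, -1.10 over age in iBAT and 1.36 in lPRAT. Angpt1 was then -2.50 in cold iBAT, 1.26 in cold iWAT, and -0.15 and -3.04 over age in mPRAT and lPRAT. With no mitochondrial limit, Angpt1 was -1.004 in cold mPRAT. With equal weight for each nucleus, Angpt1 was -1.05 in cold mPRAT, 0.94 in cold iWAT and -2.62 over age in lPRAT, and Vegfa was 0.73 in cold iBAT and -0.86 over age in iBAT. Endothelial-like Kdr was then 0.38 in cold mPRAT and 0.57 in cold iWAT, and Flt1 0.52 in cold iWAT. With at least 1000 genes per nucleus, Vegfa was 0.82 in cold iBAT and -0.85 and 0.83 over age in iBAT and lPRAT, and Angpt1 -0.45 and -3.60 there. Flt1 was then -0.49, 0.26 and -0.63 in the cold, and Kdr -0.26 in mPRAT and -1.10 in iWAT.

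With doublets kept, Flt1 in endothelial-like nuclei was -0.025 in cold mPRAT and 0.22 in cold iBAT. Without adipocyte-marker sub-clusters it was -0.022 in cold mPRAT and 0.39 in cold iWAT. Without the large-vessel cluster it was -0.66, -0.091 and 0.43, and Kdr was 0.69 in cold iWAT.

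Of the ratios past the fold, 6 changed direction. Angpt1 in endothelial-like nuclei of cold iWAT was -0.21 without adipocyte-marker sub-clusters and -0.26 without the large-vessel cluster. Vegfa in endothelial-like nuclei of lPRAT over age was -0.57 without the former. Flt1 in ASPC-like nuclei of mPRAT over iBAT was -0.21 with doublets kept. With at least 1000 genes per nucleus, Angpt2 in adipocyte-like nuclei of lPRAT over age was -1.06, and in mural-like nuclei of lPRAT over iBAT Vegfc was 1.71 and Angpt1 0.31.

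With no minimum count, the pathway genes past the fold in the cold numbered 8, 6 and 7 in ASPC-like and 11, 5 and 9 in endothelial-like nuclei. The share over all genes at that setting is not given here, and absent counts were set to the floor of 3 counts. These counts are therefore not read. Clustering at resolution 2 kept all 216 ratios within their intervals. Few nuclei limit the endothelial and mural values of lPRAT.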
